A study of Mus musculus and Rattus norvegicus with 33 samples.

Results

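After 2 days of electrical training, mouse muscle was examined in 2 left tibialis anterior muscles, which raise the foot at the ankle, from 2 wild-type (WT) mice. These legs, TAL344 and TAL345, named by animal, were taken 1 hour after exercise. Training was delivered in vivo by nerve stimulation from an implanted stimulator. The legs were chosen by their label, and they are 2 of the 33 samples of the series. They were set against all 9 WT right tibialis anterior muscles labelled as contralateral controls. They are TAR337, TAR340, TAR341, TAR342, TAR343, TAR344, TAR345, TAR348 and TAR349. TAR344 and TAR345 are the right legs of the trained mice themselves, and the other 7 right legs come from other animals. By animal number, TAR340, TAR341 and TAR342 come from mice whose left leg was trained for 10 days. TAR337, TAR343 and TAR349 come from mice whose left leg was trained for over 17 days. For TAR348 no left leg is among the samples. Left legs trained for 10 days (3 mice) and for over 17 days (3 mice), also WT and also taken 1 hour after exercise, served as the only other comparison. The labels give no strain, sex or age for any group and no hour for the right legs. No operated but untrained mouse leg was among the samples used, so surgery, body side and training cannot be told apart. The question was which genes differed between muscle early in a training programme and these contralateral muscles, and whether the 2 mice responded alike.

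Skeletal muscle answers contraction in layers. Calcium and kinase signals switch on immediate early genes, which encode short-lived transcription factors and their feedback regulators. Mechanical strain on the Z-disc, the anchoring plane of the actin filaments, induces ankyrin repeat proteins, LIM proteins and the small chaperones that hold damaged filaments together. Nerve activity normally keeps acetylcholine receptor genes silent away from the synapse, and their return along the fibre, driven by myogenin, is the textbook mark of lost innervation. Collagen, chemokine and macrophage genes mark remodelling and repair.

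Across the genome, the 2-day legs differed from the right legs at many genes, more often upward than downward, and TAL344 moved much further than TAL345. Values are CPM, read counts scaled to one common library total, and changes are differences of log2(CPM + 0.5), which understates the change of genes at low CPM. Of 13647 genes tested, 1326 (9.72%) passed a limma test at a Benjamini-Hochberg adjusted p below 0.05, of which 999 (7.32%) rose and 327 (2.4%) fell. Both trained legs lay above all 9 right legs at 1378 genes (10.1%) and below all of them at 597 genes (4.37%). Without adjustment, 3704 of the 13647 genes had a limma p below 0.05. These counts and shares over all genes are the background for the counts of each gene list below. The lists and their members were chosen with earlier results of these data known. List counts and medians therefore describe the chosen genes and are no test of a list. The left leg minus the right leg of the same mouse, its own-leg change, was 1 or more at 1661 genes in TAL344 and at 304 in TAL345, with 227 genes in both. Falls of 1 or more numbered 160 and 87, with 27 in both. Across genes, which are not independent replicates, the own-leg changes had a Pearson r of 0.424 and SDs of 0.681 in TAL344 and 0.428 in TAL345. Of the 999 risen genes, 874 changed more in TAL344, as did 9322 of all 13647. Over all genes the median own-leg change was 0.27 in TAL344 and 0.015 in TAL345. It was above 0 at 9612 genes in TAL344 and at 7048 in TAL345. Own-leg counts and medians of the gene lists below stand against these values.

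Leaving out TAL344 left 195 calls (1.44%), leaving out TAL345 left 3416 (25.1%), and 560 (4.1%) were left once the animal was fitted as a block. In the first 2 of these fits a single trained leg is assumed to vary like the other groups. Of the 1326 genes, 145 were called whichever trained leg was left out. After median-of-ratios rescaling the median change over all genes moved from 0.11 to -0.0047, and the calls split into 776 higher and 699 lower. Dropping the mitochondrial genes gave 839 higher and 476 lower. Mitochondrially encoded RNA made up 11.4% of TAL344 and 19.0% of TAL345, against 13.4% to 23.6% in the right legs.

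Some libraries stood apart. TAL344 held 543 genes at least 2-fold above the highest right leg of the other animals and TAL345 held 95. TAR340 held 69 such genes and the other 8 right legs at most 10. Depth estimated from the spacing of low CPM values was 28.1 to 43.0 M reads per leg. The estimate is rough, since reads per gene could not be recovered from those values. Markers of the labelled tissue were high, and skeletal actin, Acta1, was at 26299 CPM in TAL344 and 25289 in TAL345, within the 16352 to 27199 of the right legs. The 22 fast fibre genes summed to 174637 and 178902 CPM, against 227379 in TAR344, 223477 in TAR345 and 149617 to 227379 in all right legs. In whole muscle, fewer cells of a type and less RNA per cell cannot be told apart.

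Immediate early genes rose in both mice. Of 31 tested members, 17 rose, 18 lay above all 9 right legs in both trained legs, and the median change was 1.57 against 0.11 over all genes. By role, 5 of 6 AP-1 subunits, 7 of 14 stress and growth response factors, 2 of 3 Nr4a nuclear receptors and 3 of 8 feedback genes rose. The median own-leg change was 1.93 in TAL344 and 1.39 in TAL345. The count was 10 without TAL344, 17 without TAL345 and 17 without TAR348, the right leg with the highest Egr1, Fos, Fosb, Btg2 and Atf3. The 250 bases before the RefSeq start (GRCm38.p6) of 3 of these genes are shown first because they carry the half-site bound by CREB and ATF factors, in capitals. Its letters are TGACG, searched on both strands. A copy on the opposite strand reads CGTCA. They are Fosb (chr7:19310046-19310295, minus strand), Btg2 (chr1:134079156-134079405, minus strand) and Nr4a3 (chr4:48045055-48045304, plus strand), each printed along its own strand.
Fosb: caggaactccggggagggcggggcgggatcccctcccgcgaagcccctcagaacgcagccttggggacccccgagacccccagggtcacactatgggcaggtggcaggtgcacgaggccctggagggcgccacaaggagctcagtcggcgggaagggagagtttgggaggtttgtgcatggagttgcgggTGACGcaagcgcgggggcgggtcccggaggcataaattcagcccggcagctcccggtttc
Btg2: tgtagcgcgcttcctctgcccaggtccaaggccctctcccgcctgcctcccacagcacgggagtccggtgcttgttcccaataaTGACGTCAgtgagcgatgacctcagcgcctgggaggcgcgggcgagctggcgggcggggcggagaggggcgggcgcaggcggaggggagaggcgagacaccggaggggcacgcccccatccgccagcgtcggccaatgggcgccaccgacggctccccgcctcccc
Nr4a3: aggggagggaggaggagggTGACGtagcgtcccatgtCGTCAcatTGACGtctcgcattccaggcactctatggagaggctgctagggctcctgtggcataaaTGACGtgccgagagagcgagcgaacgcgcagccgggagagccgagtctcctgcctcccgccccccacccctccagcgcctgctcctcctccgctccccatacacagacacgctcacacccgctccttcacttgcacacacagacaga
Fosb holds 1 copy, Btg2 a pair that overlap as the palindrome TGACGTCA, and Nr4a3 holds 4 copies. Of the 7 immediate early genes described here, 5 had a RefSeq promoter entry (Atf3, Btg2, Fos, Fosb and Nr4a3), and all 5 held the half-site within 250 bases of the start. The same letters occur in 17.8% of 32851 promoters. Among the other genes searched that had an entry, they were in 3 of 5 fallen, 2 of 7 chaperone, 1 of 4 load and 0 of 4 denervation genes. A match is a description of the sequence and shows no binding.

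Atf3 (chr1:190902493-190950237, minus strand, GRCm39), a stress-induced ATF family factor, was at 546 CPM in TAL344 and 231 in TAL345. Its own right legs held 3.73 in TAR344 and 14.0 in TAR345, and the 9 right legs ran from 1.69 to 25.02 with a median of 3.73. Both trained legs thus stood far above every right leg, TAL344 higher than TAL345, and the log2 change was 5.96 ± 0.65 (SE, n = 2 against 9, limma adjusted p = 1.69e-05). Fosb, an AP-1 subunit, was at 48.7 and 30.0 CPM, against 0.418 and 0.261 in the own right legs and 0.0624 to 4.32 over the right legs (median 0.288). It rose by 5.37 ± 0.53 (adjusted p = 8.86e-06). Fos, its paralogue, was at 152 and 165 CPM, against 6.39 and 4.76 and a range of 2.74 to 75.1 (median 6.39). TAR348 alone reached 75.1 CPM, still below both trained legs, and the change was 4.30 ± 0.75 (adjusted p = 0.00159).

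Egr1, a zinc finger growth response factor, was nearly the same in the 2 mice, at 227 CPM in TAL344 and 238 in TAL345. TAR344 and TAR345 held 4.98 and 5.57, and all 9 ran from 2.54 to 31.0 (median 4.51). The change was 5.37 ± 0.55 (adjusted p = 1.16e-05). Btg2, an antiproliferative transcriptional cofactor, was at 343.9 and 153 CPM, against 14.1 and 15.1 in the own right legs and 12.7 to 56.4 in all (median 16.7), a change of 3.51 ± 0.38 (adjusted p = 1.37e-05). Nr4a3, an orphan nuclear receptor, ran the other way between the mice. It was at 84.9 CPM in TAL344 and 206 in TAL345, against 21.9 and 11.7 and a range of 4.36 to 40.3 (median 11.7), and its change was 3.49 ± 0.61 (adjusted p = 0.00169). Its own-leg change of 4.09 in TAL345 exceeded the 1.93 of TAL344. Rrad, a small GTPase that restrains calcium channels, was at 93.7 and 16.5 CPM, against 3.89 and 2.12 and at most 6.36 in any right leg. Its change of 3.90 ± 0.59 (adjusted p = 0.000397) lost its call without TAL344 (adjusted p = 0.0672).

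Otud1, a deubiquitinase outside that list, was at 530 CPM in TAL344 and 362 in TAL345, against 11.9 and 14.3 in the own right legs and 9.48 to 61.5 in all (median 14.3). It rose by 4.62 ± 0.47 (adjusted p = 1.1e-05). Irs2, the insulin receptor substrate, was higher in the other mouse, at 84.2 and 151 CPM against 21.7 and 16.2 and a range of 16.2 to 32.2 (median 21.7), and rose by 2.30 ± 0.24 (adjusted p = 1.18e-05). Sik1, a kinase induced by cAMP, was at 48.7 and 38.7 CPM, against 9.28 and 7.53 and a range of 7.09 to 30.7. Its rise of 1.83 ± 0.36 (adjusted p = 0.00411) was not called without TAL344 (adjusted p = 0.14). Among 23 tested genes of exercise metabolism, Irs2, Sik1 and the secreted factor Metrnl rose, and the uncoupling protein Ucp3 and the fatty acid transporter Cd36 fell. The last 3 calls ended without TAL344 (adjusted p = 0.629, 0.255 and 0.72) and with the block (adjusted p = 0.099, 0.233 and 0.399), and that of Ucp3 also without TAL345 (adjusted p = 0.0954). The median over these 23 was 0.13, close to that of all genes.

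**Figure D1:**
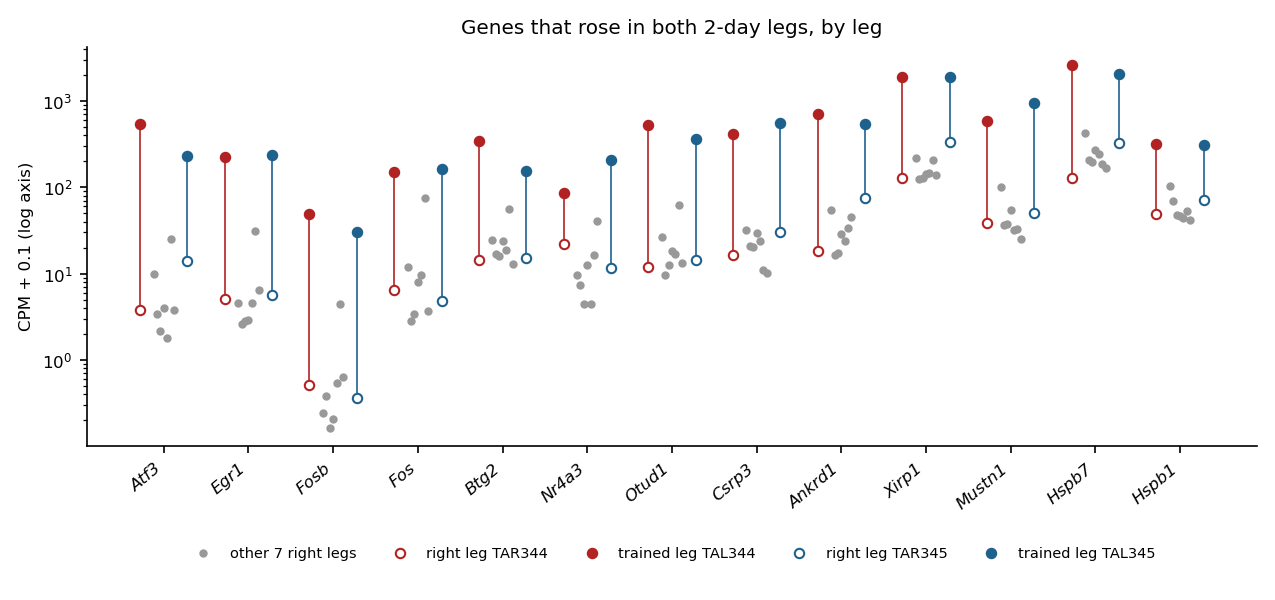
CPM + 0.1 on a log axis for 13 genes that rose, with each 2-day leg (filled) joined to the right leg of the same mouse (open) and the other 7 right legs in grey. For each gene both filled points lie above all 9 right legs, which the choice of genes required for all but Hspb1. Nr4a3 and Mustn1 are higher in TAL345, while Atf3 and Btg2 are higher in TAL344.

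Genes induced by stretch and load also rose. Of 21 tested members 16 rose, and 1, Mstn (myostatin, an inhibitor of muscle growth), fell. The median change was 1.94, with own-leg medians of 2.04 in TAL344 and 1.28 in TAL345, and 17 of the 21 had the larger own-leg change in TAL344. All 10 Z-disc and Xin proteins rose, with 2 of 3 muscle ankyrin repeat proteins and 4 of 8 YAP targets and others. The number risen was 12 without TAL344 and 15 without TAL345.

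Csrp3 (chr7:48480146-48497782, GRCm39), the muscle LIM protein of the Z-disc, was at 409 CPM in TAL344 and 556 in TAL345. Its own right legs held 16.4 and 30.4, and the 9 right legs 10.0 to 32.3 with a median of 21.1. The rise of 4.54 ± 0.51 (adjusted p = 2.35e-05) was higher in level in TAL345 and of like size in both mice (own-leg changes 4.60 and 4.17). Ankrd1, a stretch-induced titin-binding ankyrin repeat protein, was at 702 and 547 CPM, against 18.2 and 74.3 and a range of 16.5 to 74.3 (median 28.8). TAR345 was the highest right leg for this gene, and the change was 4.33 ± 0.50 (adjusted p = 2.82e-05). Ankrd2, its relative, was at 366 and 334 CPM, against 43.7 and 74.3 and a range of 26.0 to 74.8 (median 54.3), a change of 2.75 ± 0.30 (adjusted p = 1.88e-05).

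Xirp1, the Xin protein that gathers at damaged Z-discs, was level between the mice at 1881 and 1892 CPM. Its own right legs differed, at 128 in TAR344 and 333 in TAR345, the latter the highest of all (range 125 to 333, median 141), and the change was 3.51 ± 0.30 (adjusted p = 4.82e-06). Hspb7, a small heat shock protein that binds filamin C, was at 2596 and 2071 CPM, against 128 and 327 in the own right legs and 128 to 420 in all (median 205). It rose by 3.37 ± 0.31 (adjusted p = 6.06e-06). Tnfrsf12a, the TWEAK receptor raised in injured and unloaded fibres, was at 78.8 and 113 CPM, against 9.44 and 26.5 and a range of 6.62 to 26.5 (median 12.9), and rose by 2.86 ± 0.37 (adjusted p = 8.31e-05). Mustn1, a small nuclear protein of muscle and cartilage, was at 584 and 957 CPM, against 38.2 and 50.3 and a range of 25.4 to 99.8 (median 37.1). Its change was 4.15 ± 0.40 (adjusted p = 8.07e-06). Mybph, myosin-binding protein H, was at 290 and 336 CPM, against 23.9 and 64.8 and a range of 3.01 to 64.8 (median 11.5), a change of 4.42 ± 0.66 (adjusted p = 0.00034). For Csrp3, Mustn1, Mybph and Tnfrsf12a the level was higher in TAL345, although the own-leg change was larger in TAL344 for all of them but Mustn1.

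Mstn was at 24.1 CPM in TAL344 and 32.5 in TAL345, against 36.5 and 35.9 in the own right legs and 34.0 to 49.0 in all. Its fall of -0.54 ± 0.17 (adjusted p = 0.0471) did not stay called without TAL344 (adjusted p = 0.742), with the animal as a block (adjusted p = 0.322) or with mitochondrial genes left out (adjusted p = 0.0503), and it was named after its values were seen.

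Small heat shock proteins rose together, while larger chaperones were mixed. Of 25 tested chaperone genes 11 rose: 5 of 5 small heat shock proteins, 5 of 10 genes of the Hsp70 and Hsp40 families and their exchange factors, and 1 of 10 in the Hsp90, Hsp60 and Hsp110 group. The median was 0.47, with own-leg medians of 0.63 and 0.40, and 5 were called without TAL344. The Hspb1 promoter (chr5:135887669-135887918, plus strand, GRCm38.p6, RefSeq) is shown because it carries the inverted repeat of the heat shock element, GAA and TTC with any pair of bases between them, in capitals.
Hspb1: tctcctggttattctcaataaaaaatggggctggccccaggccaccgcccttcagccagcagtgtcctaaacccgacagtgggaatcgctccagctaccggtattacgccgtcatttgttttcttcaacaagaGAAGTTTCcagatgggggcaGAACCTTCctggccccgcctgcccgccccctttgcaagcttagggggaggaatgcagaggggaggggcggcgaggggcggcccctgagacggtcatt
It holds the repeat at 2 places. Of the 8 chaperone genes searched, 7 had an entry, and Hspa1a, Hspa1b, Hspb1 and Hspb3 held the repeat, which occurs in 6.69% of all promoters. It was also in 2 of 4 load genes, Csrp3 and Ankrd1. Of the immediate early, denervation and fallen genes with an entry, 0 of 5, 0 of 4 and 0 of 5 held it.

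Hspb1, an actin-protecting small chaperone, was at 321 CPM in TAL344 and 306 in TAL345. The own right legs held 48.5 and 70.8, and the right legs ran from 42.3 to 104 with a median of 48.5. Both mice stood at nearly one level, and the change was 2.47 ± 0.26 (adjusted p = 1.22e-05). Hspb8, a small heat shock protein of chaperone-assisted autophagy, was at 1797 and 972 CPM, against 442 and 392 and a range of 314 to 443 (median 368), a change of 1.82 ± 0.22 (adjusted p = 5.06e-05). Hspb3, a muscle-restricted member, was at 50.03 and 24.6 CPM, against 16.3 and 16.2 and a range of 11.1 to 16.3 (median 13.5), a change of 1.39 ± 0.20 (adjusted p = 0.000296). The inducible Hsp70 genes were uneven. Hspa1a was at 161 CPM in TAL344 and 31.7 in TAL345, against 5.35 and 9.26 and at most 14.7 in any right leg, a change of 3.04 ± 0.60 (adjusted p = 0.0041). Its near-identical neighbour Hspa1b, with which reads may be shared, was at 103 and 18.1 CPM against 3.68 and 5.18 and at most 9.79 (3.10 ± 0.67, adjusted p = 0.00821). Dnajb1, an Hsp40 co-chaperone, was at 41.5 and 10.9 CPM against 6.17 and 5.41 and at most 9.84 (1.66 ± 0.33, adjusted p = 0.0041). Without TAL344 these last 3 calls ended (adjusted p = 0.332, 0.462 and 0.416), and Hspa1b was not called with the animal as a block (adjusted p = 0.066).

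Proteasome and ubiquitin ligase genes rose, mostly by TAL344. Of 25 tested members 16 rose, among them 11 of 13 proteasome subunits and 5 of 12 in a group of atrophy ligase, autophagy and related genes. The risen members include Cited2, which is neither a subunit nor a ligase. The median change was 0.55, with own-leg medians of 0.91 in TAL344 and 0.27 in TAL345. Calls numbered 3 without TAL344 and 7 with the animal as a block. Trim63, the muscle ubiquitin ligase MuRF1, was among the 3. It was at 474 CPM in TAL344 and 571 in TAL345, against 150 and 157 in the own right legs and 150 to 336 in all (median 204), and rose by 1.31 ± 0.25 (adjusted p = 0.00341). Psmd11, a lid subunit of the proteasome, was at 114 and 108 CPM, against 54.8 and 62.7 and a range of 54.8 to 69.4 (median 63.7), a change of 0.81 ± 0.10 (adjusted p = 4.11e-05). Psmd4, a ubiquitin-binding subunit, split the mice at 272 and 135 CPM, against 119 and 122 and a range of 90.6 to 127. Its change of 0.75 ± 0.18 (adjusted p = 0.0134) was not called without TAL344 (adjusted p = 0.739) or with the block (adjusted p = 0.0957). Cited2, a CBP-binding transcriptional regulator, was at 125 and 63.0 CPM, against 20.6 and 31.2 and a range of 20.6 to 45.8, a change of 1.51 ± 0.29 (adjusted p = 0.00304, and 0.254 without TAL344).

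Polyamine genes moved in both directions. Of 9 tested, Odc1, Azin1, Sat1 and Srm rose, and Amd1 and Smox fell. Odc1, ornithine decarboxylase, the entry enzyme of the pathway, was at 166 CPM in TAL344 and 139 in TAL345, against 83.0 and 71.5 in the own right legs and 71.5 to 111 in all (median 90.4). It rose by 0.75 ± 0.14 (adjusted p = 0.00213, and 0.123 without TAL344). Azin1, the antizyme inhibitor that protects that enzyme, was at 90.0 and 107 CPM against 39.3 and 35.3 and a range of 35.3 to 45.5 (1.32 ± 0.20, adjusted p = 0.000428). Sat1, the spermidine/spermine acetyltransferase, was at 32.4 and 29.6 CPM against 10.1 and 10.6 and a range of 10.1 to 15.2 (1.33 ± 0.20, adjusted p = 0.000459). Srm, spermidine synthase, rose by 0.87 ± 0.23 (adjusted p = 0.0249), a call lost without TAL344 (adjusted p = 0.419) and with the block (adjusted p = 0.0757).

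Amd1 (chr10:40163454-40178185, GRCm39), S-adenosylmethionine decarboxylase, fell most in TAL344. It was at 99.4 CPM in TAL344 and 343.7 in TAL345, against 1036 and 735 in the own right legs and 639 to 1036 in all (median 849). The fall was -2.11 ± 0.32 (adjusted p = 0.000417) and missed the threshold without TAL344 (adjusted p = 0.0586). Its retrocopy Amd2, with which reads may be shared, was at 37.8 and 107 CPM, against 343.2 and 245 and a range of 222 to 343.2 (-2.13 ± 0.25, adjusted p = 3.22e-05). Smox, spermine oxidase, was at 74.7 and 179 CPM, against 544 and 415 and a range of 197 to 544, a fall of -1.45 ± 0.36 (adjusted p = 0.0177, and 0.611 without TAL344). TAR344 was the highest right leg for all 3 genes.

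Other falls were shared by both legs. Odf3l2, whose human and mouse names refer to sperm outer dense fibres, was at 0.122 CPM in TAL344 and 0.638 in TAL345, against 7.61 and 5.18 in the own right legs and 5.10 to 13.8 in all (median 10.5). Its change of -3.47 ± 0.36 (adjusted p = 1.18e-05) was the deepest named fall. Slc2a3, the glucose transporter GLUT3, was at 4.93 and 2.42 CPM against 12.6 and 7.35 and a range of 7.35 to 12.9 (-1.43 ± 0.27, adjusted p = 0.00295). Golm1, a Golgi membrane protein, was at 4.32 and 7.17 CPM against 16.4 and 13.3 and a range of 12.6 to 16.8 (-1.32 ± 0.17, adjusted p = 7.81e-05). Gdap1, a mitochondrial outer membrane protein, was at 7.69 and 9.07 CPM against 25.5 and 20.4 and a range of 16.01 to 29.0 (-1.31 ± 0.20, adjusted p = 0.000423). These 4 genes lay below every right leg in both mice, which the choice of genes required. In the same order, their changes without TAL344 were -3.03, -1.87, -0.98 and -1.20. Without TAL345 they were -3.91, -0.98, -1.65 and -1.42.

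Arrdc2, an alpha-arrestin, was at 10.2 and 26.99 CPM, against 82.4 and 88.2 in the own right legs and 42.6 to 158 in all. Its fall of -2.44 ± 0.58 (adjusted p = 0.0139) was not called without TAL344 (adjusted p = 0.45). Chac1, a glutathione-degrading enzyme and ATF4 target, was at 13.2 and 7.39 CPM against 19.8 and 27.7 and a range of 19.8 to 92.9 (-1.80 ± 0.39, adjusted p = 0.00843, and 0.0584 without TAL345). It was the 1 member to fall among 20 tested genes of amino acid and ER stress, of which 7 rose, 2 without TAL344 and 4 without TAL345. Among the 7 were the serine synthesis enzyme Psat1 (1.81 ± 0.34, adjusted p = 0.0026), the mitochondrial folate enzyme Mthfd2 (1.48 ± 0.34, adjusted p = 0.0107) and the stress factor Ddit3 (1.37 ± 0.34, adjusted p = 0.0185). Without TAL344 these 3 calls ended (adjusted p = 0.101, 0.512 and 0.19), and the Ddit3 call also ended without TAL345 (adjusted p = 0.0574) and with the block (adjusted p = 0.113). Pla2g7, a secreted phospholipase, was at 27.2 and 13.4 CPM against 53.6 and 47.2 and a range of 35.8 to 57.9 (-1.34 ± 0.27, adjusted p = 0.00563). That call ended without TAL345 (adjusted p = 0.0732) and with the block (adjusted p = 0.062).

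**Figure D2:**
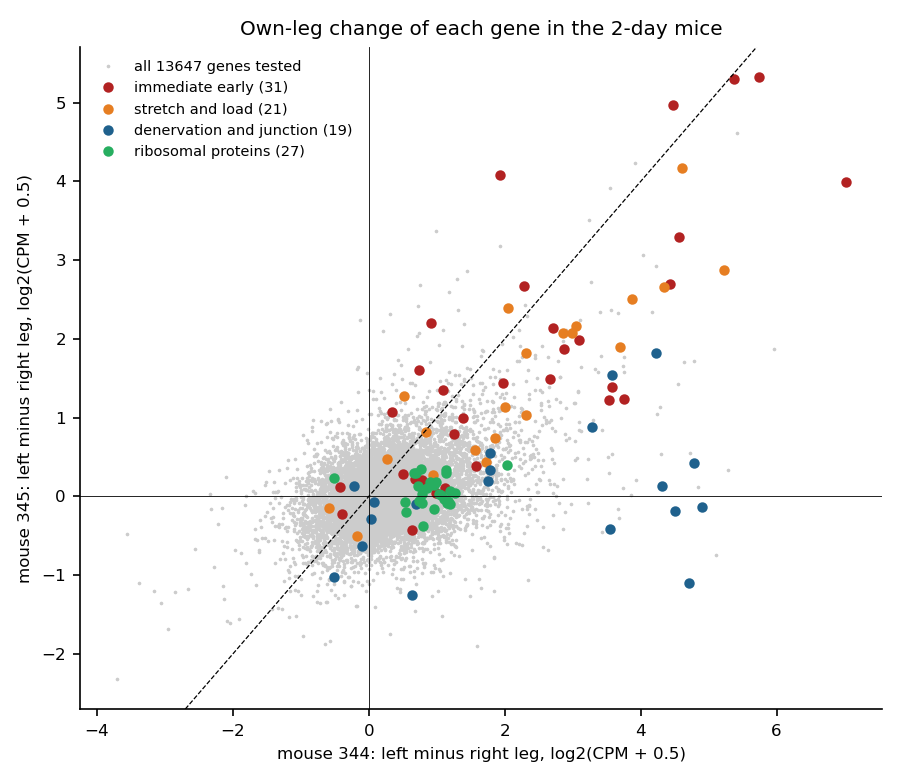
Own-leg change of 13647 tested genes in TAL344 (x axis) and TAL345 (y axis), both as differences of log2(CPM + 0.5), with the dashed line marking equal change. Immediate early genes (red) have medians of 1.93 and 1.39 and load genes (orange) of 2.04 and 1.28, while denervation genes (blue) and ribosomal protein genes (green) have medians of -0.07 and 0.04 in TAL345.

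A second set of genes was high in TAL344 and near the right legs in TAL345. These include the acetylcholine receptor subunits, sarcolipin and embryonic myosin. Of 19 tested genes of denervation and the neuromuscular junction 7 rose, with a median change of 1.25, but own-leg medians were 1.79 in TAL344 and -0.07 in TAL345. Leaving out TAL344 left 0 risen members by limma and 1 that fell, Colq, the collagen tail of acetylcholinesterase, while leaving out TAL345 left 13 risen. In the full fit 12 of the 19 had an unadjusted limma p below 0.05, as did 3704 of all 13647 genes. The genes were chosen here by the size of the difference between the mice or by list, and their difference between the 2 mice is a description with no test. The Chrna1 promoter (chr2:73580339-73580588, minus strand, GRCm38.p6, RefSeq) is shown with its CAGCTG E-boxes, the letters bound by myogenin and its relatives, in capitals.
Chrna1: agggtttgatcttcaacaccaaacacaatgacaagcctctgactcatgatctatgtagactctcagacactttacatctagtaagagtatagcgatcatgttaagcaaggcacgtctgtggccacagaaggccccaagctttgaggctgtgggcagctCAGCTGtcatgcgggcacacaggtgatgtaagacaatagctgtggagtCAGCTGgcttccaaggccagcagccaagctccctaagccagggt
It holds 2 copies. Of the 6 denervation genes searched, 4 had an entry, and Chrna1 and Chrng held the letters, which occur in 13.0% of all promoters. They were also in 1 of 5 immediate early, 1 of 7 chaperone, 0 of 4 load and 1 of 5 fallen genes with an entry.

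Chrna1, the alpha subunit of the muscle acetylcholine receptor, was at 169 CPM in TAL344 and 4.92 in TAL345. The own right legs held 8.06 and 4.44, and the 9 right legs 4.06 to 8.06 with a median of 5.04. TAL345 thus lay inside the right-leg range, and the pooled change of 2.40 ± 0.73 (adjusted p = 0.0454) was -0.09 without TAL344 (adjusted p = 0.986). Chrng, the fetal gamma subunit, was at 20.1 and 0.0266 CPM, against 0.193 and 0.0784 and at most 0.193 in any right leg. Chrnd, the delta subunit, was at 48.9 and 0.665 CPM, against 1.38 and 1.99 and a range of 0.71 to 3.20, with TAL345 below every right leg. The change of Chrng was 2.52 ± 0.78 (adjusted p = 0.0491) and that of Chrnd 1.94 ± 0.78 (adjusted p = 0.119). Without TAL344 they were -0.12 (adjusted p = 0.983) and -0.76 (adjusted p = 0.736). The Chrna1 and Chrng calls also ended with the block (adjusted p = 0.103 and 0.155), with no filter on low values (0.0588 and 0.0585) and without most single right legs. The highest adjusted p without 1 right leg was 0.0648 for Chrna1 and 0.069 for Chrng.

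Myog, the myogenin gene, was an exception in part. It was at 43.5 CPM in TAL344 and 8.16 in TAL345, against 1.86 and 1.96 in the own right legs and 1.23 to 8.34 in all (median 1.96), with TAR340 at the top. Its change was 2.85 ± 0.57 (adjusted p = 0.00493, and 0.386 without TAL344). Runx1, a transcription factor of denervated muscle, was at 29.3 and 5.29 CPM against 1.99 and 1.49 and a range of 1.49 to 5.18 (2.24 ± 0.51, adjusted p = 0.0107, and 0.601 without TAL344). Ncam1, an adhesion molecule of denervated and regenerating fibres, was at 29.5 and 4.49 CPM against 2.57 and 2.22 and a range of 1.59 to 3.98 (2.11 ± 0.52, adjusted p = 0.0166, and 0.748 without TAL344). In TAL345 these 3 genes were 0.88 to 1.82 above the own right leg on the log2 scale. Sln, sarcolipin, an inhibitor of the calcium pump, was at 43.0 and 0.585 CPM against 1.41 and 0.732 and at most 1.41 (2.27 ± 1.04, adjusted p = 0.168).

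Of 18 tested genes of regenerating and developing fibres 3 rose. They were 1 of 7 developmental contractile genes (Myh8) and 2 of 11 myogenic and satellite cell genes (Myf6 and Des). The 18 had own-leg medians of 1.45 in TAL344 and -0.02 in TAL345. Myh3, embryonic myosin, was at 47.1 CPM in TAL344 and 2.55 in TAL345, against 3.24 and 2.90 and a range of 2.90 to 4.34 (1.64 ± 0.67, adjusted p = 0.122). Myh8, perinatal myosin, was at 93.0 and 14.3 CPM against 4.31 and 6.22 and a range of 3.56 to 9.37 (2.696 ± 0.68, adjusted p = 0.0193). Reads may be shared among myosin heavy chain genes. Myf6, the myogenic factor MRF4, was at 314 and 102 CPM against 63.3 and 74.6 and a range of 60.6 to 75.5 (1.40 ± 0.26, adjusted p = 0.00304). Des, desmin, was at 6955 and 3273 CPM against 2706 and 2451 and a range of 1854 to 2932 (1.00 ± 0.21, adjusted p = 0.00644). These 3 calls ended without TAL344 (adjusted p = 0.689, 0.323 and 0.489), and that of Myh8 with the block (adjusted p = 0.0738).

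Igfn1 (chr1:135881316-135934081, GRCm39), a muscle immunoglobulin and fibronectin domain protein, differed most between the mice. It was at 811 CPM in TAL344 and 35.7 in TAL345, against 23.0 and 60.2 in the own right legs and 23.0 to 76.2 in all (median 55.1). The own-leg changes were 5.11 and -0.75, and the pooled change 1.72 ± 0.66 (adjusted p = 0.102). Cdkn1a, the cell cycle inhibitor p21, was at 199 and 14.5 CPM against 13.3 and 14.3 and a range of 10.4 to 25.9 (1.66 ± 0.56, adjusted p = 0.0689). Krt18 and Krt8, keratin partners of simple epithelia that also appear in damaged muscle, were at 42.7 and 1.91 CPM and at 19.0 and 0.133 CPM in TAL344 and TAL345. In the right legs Krt18 did not exceed 0.284 CPM and Krt8 did not exceed 0.0624 CPM, with Krt8 listed at 0 in TAR344 and TAR345. Both trained legs thus lay above every right leg for both keratins. The Krt18 change of 3.99 ± 0.82 (adjusted p = 0.00552) lost its call without TAL344 (adjusted p = 0.468). The Krt8 change of 2.79 ± 0.79 (adjusted p = 0.0319) lost its call with the block (adjusted p = 0.115), and without TAL344 the gene did not pass the filter.

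**Figure D3:**
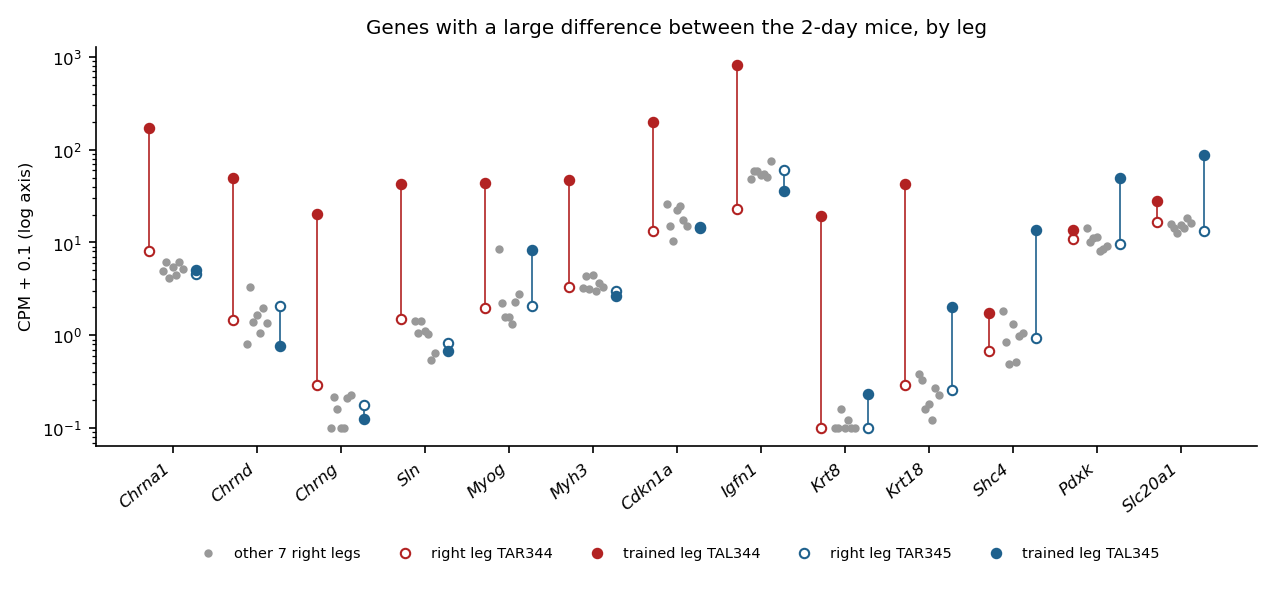
CPM + 0.1 on a log axis for 13 genes with a large difference between the mice, with each 2-day leg (filled) joined to the right leg of the same mouse (open) and the other 7 right legs in grey. From Chrna1 to Krt18 the red filled point (TAL344) is the highest of all legs, and for Shc4, Pdxk and Slc20a1 the blue filled point (TAL345) is.

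Ribosomal protein genes were raised mainly in TAL344. Of 27 tested 12 rose, with a median change of 0.59, own-leg medians of 0.96 in TAL344 and 0.04 in TAL345, and 26 of 27 larger in TAL344. Leaving out TAL344 or fitting the animal as a block left 0 called by limma, and leaving out TAL345 left 25. In the full fit 23 had an unadjusted limma p below 0.05, as did 3704 of all 13647 genes. Rps20 was at 148 CPM in TAL344 and 59.6 in TAL345, against 60.9 and 57.8 in the own right legs and 34.0 to 60.9 in all (0.94 ± 0.23, adjusted p = 0.0176). Rpsa was at 358 and 182 CPM against 171 and 179 and a range of 107 to 179 (0.78 ± 0.19, adjusted p = 0.017). Rpl3 was at 34.9 and 9.54 CPM against 8.13 and 7.14 and a range of 4.25 to 12.2 (1.29 ± 0.36, adjusted p = 0.0298). Without TAL344 their adjusted p was 0.806, 0.749 and 0.886. Of 22 ribosome biogenesis genes Nop58, Rrp12 and Gnl3 rose, while 7.32% of all genes did. By limma 0 of the 22 were called without TAL344 or after median-of-ratios rescaling, 10 without TAL345 and 1 with the block, and 10 had an unadjusted p below 0.05 in the full fit.

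Growth and division genes rose in small number. Of 11 tested cell cycle genes Mki67, Rrm2, Mcm6, Ccnd1 and Pcna rose and Tpx2 fell, with a median change of 0.92. Mki67, a marker of dividing cells, was at 4.38 CPM in TAL344 and 3.75 in TAL345, against 0.546 and 0.627 in the own right legs and 0.116 to 2.17 in all (1.85 ± 0.44, adjusted p = 0.0145). Mcm6, a replicative helicase subunit, was at 6.20 and 5.93 CPM against 1.73 and 2.77 and a range of 1.51 to 3.82 (1.13 ± 0.27, adjusted p = 0.0134). Both trained legs lay above all right legs for these 2 genes, at close levels. Without TAL344 the adjusted p was 0.261 for Mki67 and 0.22 for Mcm6, and 0 of the 11 genes were called, with 10 of 11 at an unadjusted p below 0.05 in the full fit. With the animal as a block 3 of the 11 rose and 0 fell by limma, and the calls of Rrm2, Ccnd1, Pcna and Tpx2 ended (adjusted p = 0.0575, 0.111, 0.0575 and 0.116).

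Matrix genes were mostly higher than in the own right leg in both mice, and further in TAL344. All 33 tested had a positive own-leg change in TAL344 and 31 in TAL345, as did 9612 and 7048 of all 13647 genes. The medians were 1.83 and 0.66, against 0.27 and 0.015 over all genes, yet 8 of the 33 passed the test. One right leg bore on this count: without TAR340, 21 of 33 rose. Without TAL344 the count was 2. In both trained legs 18 of the 33 lay above all 9 right legs. Adamts1, a versican-cleaving protease, was at 177 CPM in TAL344 and 135 in TAL345, against 29.8 and 35.4 in the own right legs and 29.8 to 64.6 in all (2.00 ± 0.22, adjusted p = 1.37e-05). Thbs1, thrombospondin 1, was at 28.3 and 40.8 CPM against 2.47 and 5.78 and a range of 2.47 to 22.2 (2.17 ± 0.46, adjusted p = 0.00736).

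Collagens were less clear. Col3a1, type III collagen, was at 375 CPM in TAL344 and 317 in TAL345, against 59.4 and 121 and a range of 38.1 to 167 (2.16 ± 0.56, adjusted p = 0.0218). Timp1, a metalloproteinase inhibitor, split the mice at 14.2 and 1.97 CPM against 0.128 and 0.418 and a range of 0.128 to 1.49 (2.69 ± 0.67, adjusted p = 0.0186). Without TAL344 the calls of Thbs1, Col3a1 and Timp1 ended (adjusted p = 0.0733, 0.331 and 0.67), and the latter 2 also with the block (adjusted p = 0.0655 and 0.0545). Markers of other cells moved beside these genes. Over all genes 7.32% rose, so a single risen marker in a short list is close to that share. The 8 tendon markers summed to 308 CPM in TAL344 and 215 in TAL345, against 62.9 and 196 in the own right legs and 62.9 to 312 in all, and 1 of 8 rose. That gene, Scx, the tendon transcription factor scleraxis, was at 28.4 and 4.73 CPM against 2.02 and 3.19 and a range of 2.02 to 3.84 (1.91 ± 0.45, adjusted p = 0.0131, 0.731 without TAL344 and 0.0638 with the block). The 10 fibroblast markers summed to 544 and 540 CPM against 275 to 915, and 1 of 10, Mfap5, rose (1.41 ± 0.38, adjusted p = 0.0261), a call that ended without either trained leg (adjusted p = 0.191 and 0.101). Their part in the matrix result was not tested.

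Macrophage markers summed to more than in the own right leg in both mice, with TAL344 ahead, but few were called. Over all genes 7.32% rose in the full fit. Of 16 macrophage markers, Cd68 and Csf1r rose, 8 rose without TAR340, 9 without TAL345 and 1 without TAL344. Their sum was 353 CPM in TAL344 and 142 in TAL345, against 57.1 and 56.4 in the own right legs and 46.9 to 218 in all (median 57.1). Cd68, a lysosomal glycoprotein of macrophages, was at 20.5 CPM in TAL344 and 24.7 in TAL345, against 1.28 and 1.18 in the own right legs and 0.645 to 5.15 in all. It rose by 3.73 ± 0.58 (adjusted p = 0.000525). Csf1r, the receptor for the macrophage growth factor, was at 29.3 and 17.4 CPM in TAL344 and TAL345 against 5.32 and 6.76 and a range of 4.63 to 17.4 (1.66 ± 0.46, adjusted p = 0.0285, and 0.523 without TAL344). C1qa, a complement subunit, was at 22.1 and 7.10 CPM against 3.34 and 3.56 and a range of 2.23 to 12.3, and missed the threshold (1.54 ± 0.54, adjusted p = 0.079). Spp1, osteopontin, was at 21.5 and 1.25 CPM against 1.22 and 1.62 and a range of 0.835 to 5.69 (1.51 ± 1.09, adjusted p = 0.392).

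Of 14 tested cytokines and chemokines, Ccl2, Ccl7, Ccl8, Cxcl10 and Tgfb1 rose. Ccl2, which attracts monocytes, was at 4.23 CPM in TAL344 and 2.29 in TAL345, against 0.257 and 0.314 in the own right legs and 0.0576 to 1.63 in all (2.16 ± 0.39, adjusted p = 0.00191). TAR340 was the highest right leg for each of the 5. Without TAL344, 0 of the 14 were called, with 8 of 14 at an unadjusted p below 0.05 in the full fit, and Ccl2 had an adjusted p of 0.131. The Ccl8 call (adjusted p = 0.0445) also ended with a pseudocount of 0.1, with no filter on low values, with no mean-variance trend and without any 1 of 8 right legs, with adjusted p values up to 0.0667. That of Tgfb1 ended with the block (adjusted p = 0.0715) and that of Cxcl10 with only the groups compared (adjusted p = 0.0505). Neutrophil markers summed to 31.7 CPM in TAL344 and 4.36 in TAL345, within the 1.91 to 59.7 of the right legs, and Ly6g was listed at 0 in both. The 12 endothelial markers summed to 435 and 628 CPM against 540 to 837, and 1 of 12, Tek, fell (-0.56 ± 0.17, adjusted p = 0.0451, 0.846 without TAL344 and 0.256 with the block). After median-of-ratios rescaling 5 of 12 fell, and without TAL345 7 fell. Smooth muscle and pericyte markers summed to 305 and 638 CPM against 513 to 832, so TAL344 lay below all right legs for both lists.

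Ighm, the IgM heavy chain, fell. It was at 17.1 CPM in TAL344 and 27.3 in TAL345, against 76.7 and 68.3 in the own right legs and 38.6 to 76.7 in all (median 51.8). Both legs lay below every right leg, and the fall was -1.28 ± 0.26 (adjusted p = 0.00466, and 0.26 without TAL344). The 11 lymphocyte markers, of which 2 passed the filter and Cd3d was listed at 0 in both trained legs, summed to 18.9 and 28.5 CPM against 39.8 to 78.0. Ighm made up nearly all of these sums. The other 10 markers summed to 1.79 CPM in TAL344 and 1.14 in TAL345, against 1.28 and 1.05 in the own right legs and 0.865 to 1.49 in all, and so were not lower in the trained legs. The 10 Schwann cell and nerve markers summed to 41.6 CPM in TAL344 and 67.9 in TAL345, against 44.9 to 76.3, so TAL344 was below all right legs. Whether the nerve supply of that leg bore on its acetylcholine receptor genes was not tested.

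**Figure D4:**
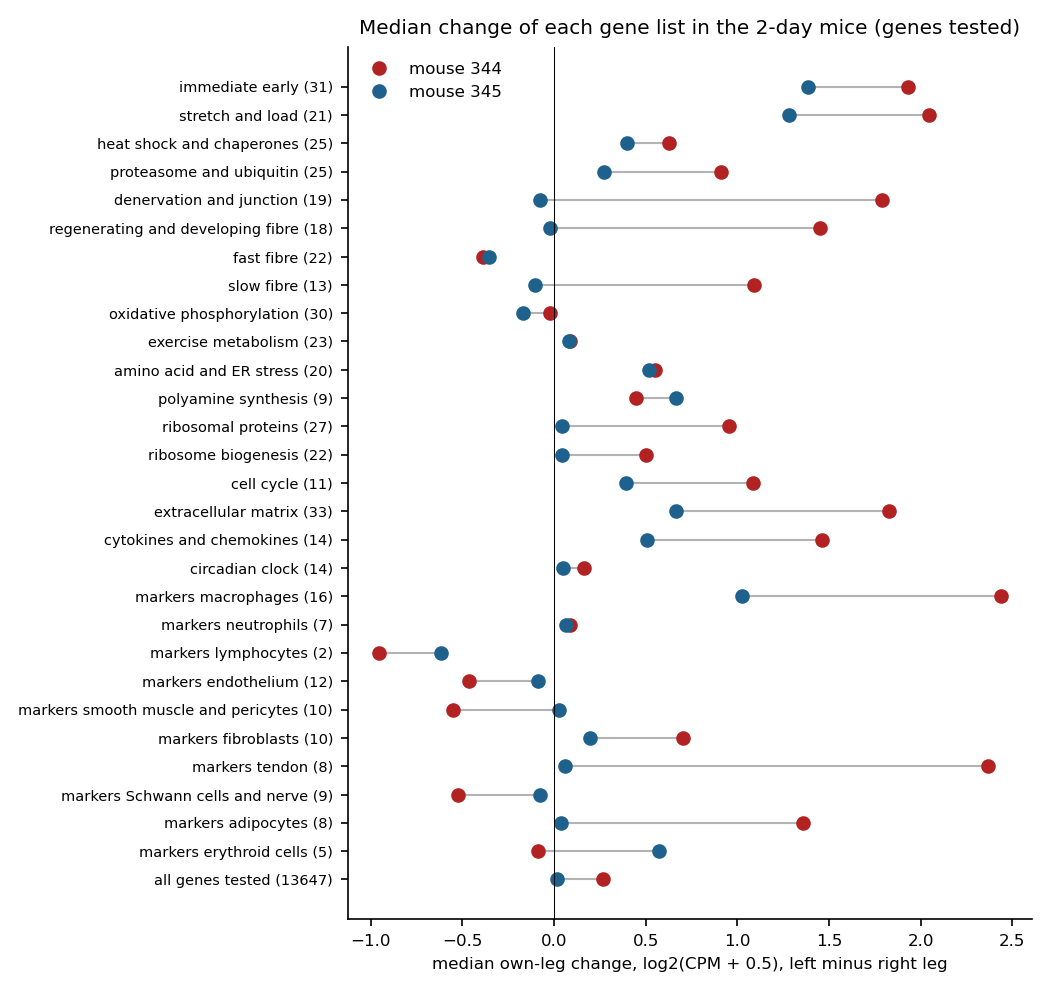
Median own-leg change of each gene list in TAL344 (red) and TAL345 (blue), on the log2(CPM + 0.5) scale, with the number of tested genes in parentheses. Immediate early and load lists lie right of 1 in both mice, and the denervation, ribosomal protein and tendon lists have medians of 1.79, 0.96 and 2.37 in TAL344 and of -0.07, 0.04 and 0.06 in TAL345.

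Fewer genes moved further in TAL345. Shc4, a signalling adaptor, was at 13.4 CPM in TAL345 and 1.65 in TAL344, against 0.844 and 0.576 in the own right legs and 0.396 to 1.74 in all. Its pooled change of 2.06 ± 0.46 (adjusted p = 0.0101) ended without TAL345 (adjusted p = 0.227). Pdxk, pyridoxal kinase, was at 49.3 CPM in TAL345 and 13.4 in TAL344, against 9.52 and 10.8 and a range of 8.05 to 14.2 (1.31 ± 0.36, adjusted p = 0.0281, 0.461 without TAL345 and 0.117 with the block). TAL344 lay inside the right-leg range for both genes. Slc20a1, a phosphate transporter, was at 87.8 CPM in TAL345 and 27.9 in TAL344, above the right-leg range of 12.5 to 18.5 in both (1.69 ± 0.34, adjusted p = 0.00449, and 0.0853 without TAL345). In the 10-day legs Pdxk ran from 60.2 to 162 CPM and Slc20a1 from 57.5 to 128, so TAL344 lay below that group for both genes and TAL345 for Pdxk. Myh13, the extraocular myosin, and Slc15a5, a solute carrier, fell in TAL344 by -2.32 and -2.22 against its own right leg and in TAL345 by -0.16 and -0.35. Their calls (-1.15 ± 0.30 and -1.24 ± 0.29, adjusted p = 0.0212 and 0.0117) ended without TAL344 (adjusted p = 0.862 and 0.524) and with the block (adjusted p = 0.091 and 0.0621).

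Few fibre type genes passed the test. Of 22 fast fibre genes, Gpd1, Mybpc2 and Mylk2 fell, with a median of -0.06 over the list. Of 13 genes on the slow fibre list, Actn2, Myoz2 and Mybpc1 rose, with a median of 0.41. Actn2 is not confined to slow fibres. Without TAL344 the calls of Mybpc2, Myoz2 and Mybpc1 ended (adjusted p = 0.826, 0.791 and 0.654), that of Mybpc1 also with the block (adjusted p = 0.0853), and without TAL345 8 slow genes rose. The fast fibre genes had own-leg medians of -0.39 in TAL344 and -0.36 in TAL345, with 6 and 1 of the 22 above the own right leg. The slow fibre genes split the mice, with own-leg medians of 1.09 in TAL344 and -0.11 in TAL345. All 13 slow genes were above the own right leg in TAL344 and 6 in TAL345. Gpd1, glycerol-3-phosphate dehydrogenase, was at 336 CPM in TAL344 and 368 in TAL345, against 795 and 772 in the own right legs and 522 to 795 in all (-0.91 ± 0.16, adjusted p = 0.00172, and 0.0674 without TAL344). Actn2, the alpha-actinin of the Z-disc, was at 2220 and 1522 CPM against 738 and 1044 and a range of 606 to 1044 (1.17 ± 0.17, adjusted p = 0.00034), called whichever trained leg was left out. Mylk2, the skeletal myosin light chain kinase, was at 546 and 775 CPM against 866 and 1131 and a range of 837 to 1445 (-0.67 ± 0.19, adjusted p = 0.032, 0.674 without TAL344 and 0.143 with the block). The main fast myosins did not pass. Myh4 was at 30611 and 51278 CPM against 69808 and 67230 in the own right legs and 43585 to 70930 in all (-0.51 ± 0.23, adjusted p = 0.167). Myh1 was at 22095 and 15807 CPM against 9999.7 and 13033 and a range of 8062 to 14001 (0.72 ± 0.25, adjusted p = 0.0726).

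Of 30 oxidative phosphorylation genes 0 were called by limma, 1 had an unadjusted p below 0.05, and the median was -0.03. The 9 subunits encoded in the mitochondrial genome had own-leg medians of -0.66 in TAL344 and 0.21 in TAL345, and 5 of them fell without TAL345. The 21 nuclear-encoded subunits had own-leg medians of 0.09 in TAL344 and -0.27 in TAL345, with 0 called by limma whichever trained leg was left out. The mitochondrial mt-Nd2 was at 6048 CPM in TAL344 and 15584 in TAL345 against 8144 to 20494 in the right legs (-0.61 ± 0.35, adjusted p = 0.268). Of 14 clock genes Hlf fell (-0.77 ± 0.16, adjusted p = 0.00607, 0.354 without TAL344 and 0.0657 with the block). Over all genes 2.4% fell in the full fit. No change in the clock beyond Hlf was detectable with 2 trained legs.

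Against longer training, few genes passed the test, and the load genes Csrp3, Ankrd1 and Ankrd2 were among those higher at 2 days. Against the 3 legs of 10 days, 3 of 13647 genes (0.022%) were called, Myl12a, Tubb4b and Pvr, all higher at 2 days. Against the 3 legs of over 17 days, 80 genes (0.586%) were called, 65 higher and 15 lower. Without adjustment, 1580 genes against 10 days and 2217 against over 17 days had a limma p below 0.05. The few calls therefore do not show that the groups were alike. With the animal as a block 1 gene was called in each comparison. The values against 10 days and over 17 days share the 2-day legs. Without TAL345 the counts were 1610 and 2233, and without TAL344 they were 5 and 15.

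Myl12a (chr17:71300651-71309874, GRCm39), a regulatory light chain of nonmuscle myosin, was at 1345 CPM in TAL344 and 484 in TAL345, against 138 to 253 after 10 days, 136 to 178 after over 17 days and 95.03 to 157 in the right legs. It rose by 2.62 ± 0.27 against the right legs (adjusted p = 1.1e-05). It was 2.11 higher than at 10 days (adjusted p = 0.0319) and 2.32 ± 0.31 higher than at over 17 days (adjusted p = 0.00153). Tubb4b, a beta-tubulin, was at 396 and 242 CPM, against 112 to 170, 85.8 to 108 and 115 to 140 in the same 3 groups. Pvr, the poliovirus receptor family adhesion protein, was at 24.8 and 18.3 CPM, against 9.24 to 11.6, 11.7 to 15.7 and 7.52 to 9.32. Tubb4b exceeded the 10-day legs by 1.12 (adjusted p = 0.0445) and Pvr by 0.97 (adjusted p = 0.0446). Against over 17 days Tubb4b differed by 1.67 ± 0.18 (adjusted p = 0.000299), and Pvr, with 0.68 ± 0.16, missed the threshold (adjusted p = 0.0594). The 2 trained legs did not overlap either longer group for any of these 3 genes. The choice of genes required this against 10 days for all 3, and against over 17 days for Myl12a.

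Several load and chaperone genes were higher at 2 days than after over 17 days. Csrp3, at 409 and 556 CPM, ran from 18.2 to 138 after 10 days and from 26.97 to 37.6 after over 17 days, the latter 3.94 ± 0.60 below 2 days (adjusted p = 0.00403). Ankrd2 ran from 76.9 to 124 and from 66.0 to 71.5 CPM (2.35 ± 0.36 against over 17 days, adjusted p = 0.00403). Ankrd1 ran from 112 to 323 and from 59.2 to 168 CPM (2.61 ± 0.58, adjusted p = 0.0495). Hspb1 ran from 115 to 178 and from 67.8 to 113 CPM (1.81 ± 0.31, adjusted p = 0.0127). Cgref1, a secreted growth regulator, was at 14.6 and 6.38 CPM in the 2-day legs, against 1.92 to 2.73, 0.962 to 1.51 and, in the right legs, 0.468 to 1.56 (2.52 ± 0.31 against over 17 days, adjusted p = 0.0014). All 5 stood above both longer groups in both 2-day legs. The choice of genes required no overlap with the over 17-day legs for all of them but Hspb1. The 10-day differences of Csrp3 (2.99), Ankrd2 (1.73) and Cgref1 (1.82) missed the threshold, with adjusted p of 0.0705, 0.0859 and 0.0551.

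No difference between durations was called for Egr1, Xirp1 or Nr4a3. Egr1 ran from 222 to 289 CPM after 10 days and from 123 to 241 after over 17 days, around the 227 and 238 of the 2-day legs (differences -0.10 and 0.46, adjusted p = 0.975 and 0.754). Xirp1 ran from 1481 to 1784 and from 829 to 1774 CPM, with adjusted p of 0.884 and 0.31. Nr4a3 was higher in each longer group by range, at 275 to 597 and 214 to 679 CPM, but its differences of -1.43 and -1.40 ± 0.72 did not pass (adjusted p = 0.45 and 0.345). These misses do not show equal levels. Ighm was lower still in longer training, at 6.22 to 7.71 and 3.66 to 7.20 CPM, so the 2-day legs stood 2.01 ± 0.30 above over 17 days (adjusted p = 0.00403).

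Among the genes lower at 2 days than after over 17 days were the vessel genes Apln and Cd93. Apln, apelin, a peptide of sprouting vessel tips, was at 1.43 CPM in TAL344 and 2.90 in TAL345, against 6.77 to 7.79 after over 17 days and 0.817 to 2.10 in the right legs (-1.60 ± 0.28, adjusted p = 0.0153). Cd93, an endothelial membrane receptor, was at 30.3 and 56.2 CPM against 81.6 to 103 and 37.9 to 55.5 (-1.13 ± 0.20, adjusted p = 0.018). Adamts9, a matrix protease, was at 9.54 and 10.8 CPM against 28.8 to 54.4 and 3.997 to 11.3 (-1.79 ± 0.35, adjusted p = 0.0316). Prnd, a prion-like protein, was at 0.973 and 1.99 CPM against 6.83 to 7.64 (-2.01 ± 0.40, adjusted p = 0.0316). Rapgef5, an activator of Ras-related GTPases, was at 5.69 and 10.5 CPM against 16.5 to 18.7 (-1.12 ± 0.24, adjusted p = 0.0442). Mylk4, a myosin light chain kinase, was at 1005 and 2049 CPM against 2785 to 3107 (-1.05 ± 0.21, adjusted p = 0.0316). None of the 6 was called against the right legs, with adjusted p from 0.127 for Prnd to 0.77 for Cd93.

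**Figure D5:**
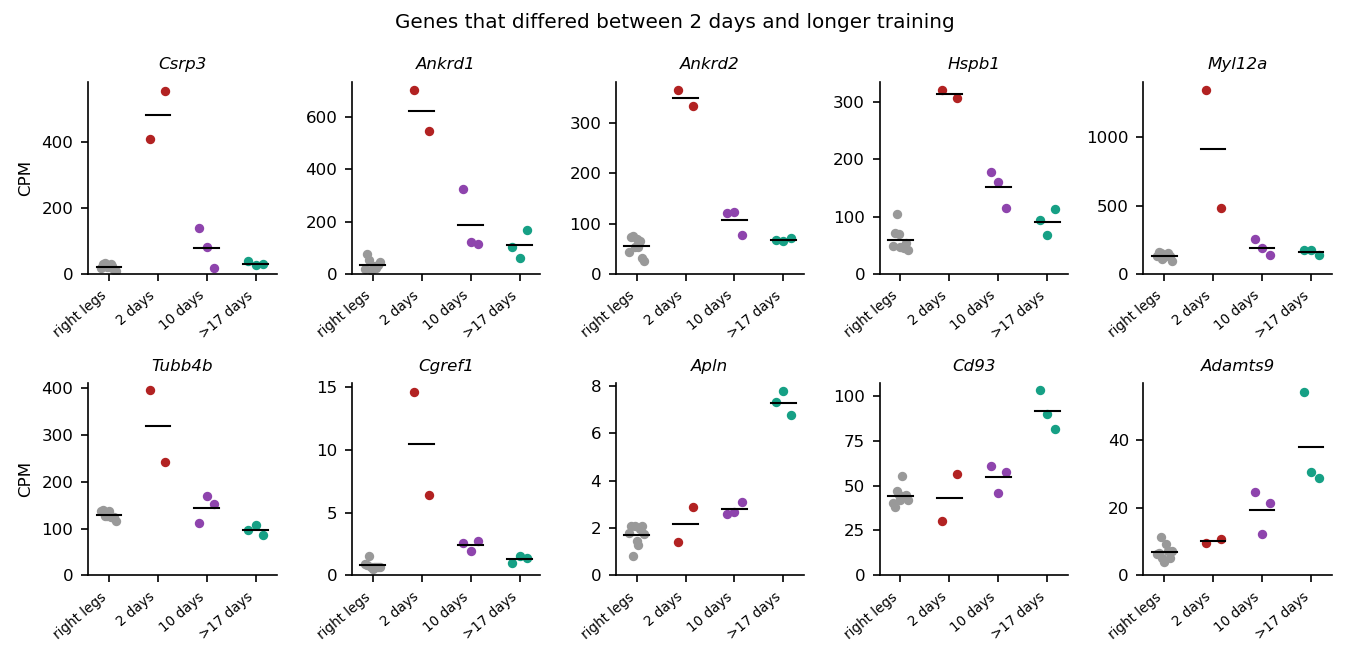
CPM of 10 genes in the right legs (grey), after 2 days (red), 10 days (purple) and over 17 days (green) of training, 1 point per leg and a bar at the group mean. From Csrp3 to Cgref1 both 2-day legs lie above both longer groups, and for Apln, Cd93 and Adamts9 they lie below the over 17-day legs. No overlap with the over 17-day legs was required in choosing all of these genes but Hspb1 and Tubb4b. No overlap with the 10-day legs was required for Myl12a and Tubb4b.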

How the data were processed

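RNA from 17 mouse tibialis anterior muscles was sequenced, of which 11 carry the main comparison. The authors deposited CPM (read counts scaled to the library total) per gene. Tools listed in the submitters' processing notes are Partek, DESeq2 and STAR 2.7.8a, with the builds GRCm39, mm10 and rn7, and no role for any of them. Strand use is not stated. An offset of 0.0001 in the deposited CPM was subtracted, and 23 entries sharing a name with a more abundant entry were dropped from the 21345 genes. Reads could not be recovered, since 85.8% to 87.9% of low values were whole steps (within 0.05, with 95% needed), so no count test was run.

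Genes reaching a CPM of 1 in 2 libraries or more were tested with limma 3.58.1 (R 4.3.3) on log2(CPM + 0.5) with a mean-variance trend, over all 17 libraries in 4 groups, with Benjamini-Hochberg adjustment over 13647 genes. The script was tested on simulated data in which all legs had the same spread and no shared animal. That test does not cover trained legs that differ as these 2 do. Same-numbered legs share an animal, and their deviations from the group means correlated at 0.121 to 0.303 in 7 animals and at -0.034 in the TAL345 mouse. Alternatives were pseudocounts of 0.1 and 1, other filters, median-of-ratios rescaling, no mitochondrial genes, only the groups compared, no trend, the animal block and each leg left out. Named genes were the 20 largest rises and 15 largest falls seen in both mice, with both trained legs outside the right-leg range. Further ones were up to 6 members per list and the 10 largest differences between the mice in each direction. The last were the 6 largest differences from each longer group in each direction. These were taken among called genes at which the 2-day legs did not overlap that group. Acta1 and Mstn were added after their values were seen. A few genes that this rule picks are not reported here. The members and lists were chosen with earlier results of these data known. Legs of 1 group carry different animal numbers in their labels. Sequences came from RefSeq GRCm38.p6 and gene coordinates, as deposited, are on GRCm39. The rat samples were not used here.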

Additional observations from a re-analysis of the deposited data

Results flagged for a closer look

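For the named genes, 1 right leg often stood apart from the other 8. The gap in CPM between the highest right leg and the next was large for its group of 9 (Dixon's test at the 95% level). Chance passes this test in about 1 group in 20 only where values are normally distributed. CPM values need not be, so the rate here is not known, and some gaps are smaller on the log2 scale. Genes flagged in one leg share a library. In TAR348 the highest value and the next were 31.0 CPM for Egr1 against 6.35, 4.32 CPM for Fosb against 0.543, 75.1 CPM for Fos against 11.9, 56.4 CPM for Btg2 against 24.7, 61.5 CPM for Otud1 against 26.3 and 64.6 CPM for Adamts1 against 45.7. In TAR340 they were 99.8 CPM for Mustn1 against 55.0, 104 CPM for Hspb1 against 70.8, 5.15 CPM for Cd68 against 1.51, 8.34 CPM for Myog against 2.71, 5.18 CPM for Runx1 against 3.10, 1.49 CPM for Timp1 against 0.479, 22.2 CPM for Thbs1 against 11.8 and 17.4 CPM for Csf1r against 9.97. The same leg held 12.3 CPM for C1qa against 5.18, 1.63 CPM for Ccl2 against 0.343, 1.56 CPM for Cgref1 against 0.931, 2.02 CPM for Psat1 against 1.16, 5.82 CPM for Mthfd2 against 3.73, 1.85 CPM for Cxcl10 against 0.505, 0.994 CPM for Ccl7 against 0.330 and 3.76 CPM for Ccl8 against 1.09. In TAR345 they were 333 CPM for Xirp1 against 221 and 64.8 CPM for Mybph against 32.3. In TAR342 they were 0.0624 CPM for Krt8 against 0.0232 and 1445 CPM for Mylk2 against 1131. Single cases were TAR349 with 40.3 CPM for Nr4a3 against 21.9, TAR344 with 8.06 CPM for Chrna1 against 6.06 and TAR337 with 5.69 CPM for Spp1 against 2.45. A trained leg lay within the right-leg range for Myog, Chrna1, C1qa, Spp1, Mthfd2, Cxcl10 and Ccl8, and for the other genes both trained legs lay outside it on the same side.

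The trained groups differed at these named genes by limma, each group having been set against the same right legs in 1 model. Against 10 days the log2 difference was 2.11 for Myl12a (adjusted p = 0.0319), 1.12 for Tubb4b (adjusted p = 0.0445) and 0.97 for Pvr (adjusted p = 0.0446), higher in the 2-day legs. Against over 17 days the 2-day legs were higher by 3.94 for Csrp3 (adjusted p = 0.00403), 2.61 for Ankrd1 (adjusted p = 0.0495), 2.35 for Ankrd2 (adjusted p = 0.00403), 1.81 for Hspb1 (adjusted p = 0.0127), 1.18 for Hspb8 (adjusted p = 0.0495) and 1.15 for Hspb3 (adjusted p = 0.0372). Further differences in the same direction were 0.60 for Psmd11 (adjusted p = 0.0269), 0.73 for Odc1 (adjusted p = 0.0468), 2.01 for Ighm (adjusted p = 0.00403), 2.32 for Myl12a (adjusted p = 0.00153), 1.67 for Tubb4b (adjusted p = 0.000299) and 2.52 for Cgref1 (adjusted p = 0.0014). The difference was negative, lower in the 2-day legs, at -2.01 for Prnd (adjusted p = 0.0316), -1.79 for Adamts9 (adjusted p = 0.0316), -1.60 for Apln (adjusted p = 0.0153), -1.13 for Cd93 (adjusted p = 0.018), -1.12 for Rapgef5 (adjusted p = 0.0442) and -1.05 for Mylk4 (adjusted p = 0.0316). With the animal as a block 1 gene in all was called in each of these 2 comparisons.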

How the results depend on the processing

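The count of genes called against the right legs ran from 1033 to 1473 when a right leg was left out in turn, and from 195 to 3416 over all left-out legs, the lowest without TAL344 and the highest without TAL345. It was 560 with the animal as a block and stayed within 1.5 times the main count under the other pseudocounts, filters, rescalings and fits. The replicate numbers name animals, so the block pairs left and right legs. It ended the calls of 33 of 102 called genes among the 119 named ones, and 35 kept the call in every alternative run. Leaving out TAL344 ended 61 calls and TAL345 10.

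Against 10 days the 3 calls became 14 with no filter, 12 after median-of-ratios rescaling, 11 without mitochondrial genes, 5 with no mean-variance trend, 1 with the replicate block and 0 with only the groups compared (limma, 590 at an unadjusted p below 0.05). With a leg left out the count ran from 0 (without TAL342, 1030 at an unadjusted p below 0.05) to 1610 (without TAL345). Against over 17 days the 80 calls became 127 after median-of-ratios rescaling, 33 with no trend, 4 with only the groups compared and 1 with the replicate block, and ran from 15 (without TAL344) to 2233 (without TAL345) with a leg left out. Of the 80 calls 81.3% were higher at 2 days, against 71.7% after rescaling and 54.1% without mitochondrial genes.

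The direction of 13 named genes turned when a 2-day leg was left out. Their log2 change ran from -0.12 to 5.17 for Chrng, -0.76 to 4.64 for Chrnd, -0.086 to 4.88 for Chrna1, -0.40 to 4.93 for Sln, -0.34 to 3.62 for Myh3, -0.21 to 3.52 for Cdkn1a, -0.52 to 3.97 for Igfn1 and -0.32 to 3.33 for Spp1. It ran from -1.29 to 0.075 for mt-Nd2, -0.16 to 0.65 for Apln, -0.54 to 0.35 for Cd93, -0.66 to 0.17 for Rapgef5 and -0.91 to 0.12 for Mylk4. Cd93 also turned with the replicate block, to 0.076. In the other alternatives 63 values of 37 genes lost their call. The cause of these changes was not tested. With 2 trained legs, differences as large as the gap between them are poorly resolved, and genes near 1 CPM rest on few reads.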
